A study of Arabidopsis thaliana with 6 samples.

Results

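A set of 121 probe sets read low on both arrays whose titles carry the code A3, while both arrays of line cdpk6-yfp 4 stayed near the control. The members were chosen by the deposited intensities of all 6 arrays of the series. Values under 10 intensity units were first raised to 10. Both control arrays then had to reach 50 units, both A3 arrays had to lie at or below the lower control divided by 2, and both arrays of line 4 had to lie between the lower control divided by 1.4 and the higher control multiplied by 1.4. Of 22746 probe sets, 10211 reached the control minimum and 9087 of these also met the condition on line 4. All conditions were met by 129 probe sets, which is 1.26% of the 10211. STZ, LTI30, CML38, WRKY53, PUB22, PUB23, AT5G52020 and AT2G22880 were then left out by name, 8 probe sets in all, which gave the 121 members. The annotation used here assigns 1 gene to 58 of them and several genes to 1, and leaves 62 unnamed. Since the choice used every array, the values below are a description, and no test was made of them.

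By its title, the series concerns the part that Cdpk6, a kinase activated by calcium, plays in development. Each array was hybridised with RNA of whole Col-0 seedlings pooled from about 40 plants that had been kept at 22 °C and 100% humidity under 16 h of light. Array A3-2 was labelled as line cdpk6-yfp-1 with a cdpk6-yfp transgene. Array A3-1 has conflicting labels: its strain and modification fields give the same line and transgene as A3-2, while its title continues the numbering of the control arrays (Kan-3) and its source name gives the aeq control. It was placed in no group, and its values are given apart from those of A3-2 throughout. Arrays A2-1 and A2-2 came from line cdpk6-yfp 4, also with a cdpk6-yfp transgene, and arrays A1-1 and A1-2 from the control line aeq+, which carries a transgene for aequorin, a photoprotein that reports calcium. The labels do not say which promoter drives the cdpk6-yfp transgene, whether its lines carry aequorin too, or how old the seedlings were. The design text calls the 2 samples of a line biological replicates, without saying whether their seedlings were grown apart.

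The arrays had been brought to a common scale, with 2% trimmed means between 100.008 and 100.009 units and medians between 44.2 and 46.4. Scanner background averaged 95.64 on A3-1 and 91.47 on A3-2, 90.52 and 93.79 on the line 4 arrays, and 89.78 and 142.62 on the control arrays. Signal for 25S ribosomal RNA was 2189.3 units on A3-1 and 1073.1 on A3-2, against 275.4 and 915.9 in line 4 and 282.1 and 277.2 in the control. It was thus above both controls on both A3 arrays, and on 1 of the 2 line 4 arrays. The part of that difference in the results below was not tested. The ratio of 3′ to 5′ signal of actin, which rises as RNA degrades, was 4.67 on A3-1 and 4.17 on A3-2, 3.19 and 3.48 in line 4, and 4.27 and 4.30 in the control, so the A3 arrays stood on either side of the control values. The 4 root markers that were named on the array, of 6 listed, summed to 2399.7 units on A3-1 and 2682.0 on A3-2, 2501.1 and 2431.6 in line 4, and 3115.9 and 2772.6 in the control. Most of that sum is PYK10, at 2178.5 units on A3-1 and 2547.6 on A3-2, against 2320.4 and 2237.7 in line 4 and 2929.8 and 2597.6 in the control. The root peroxidase gene AT5G17820 instead stood above both controls on A3-1 and below both on A3-2, at 145.0 and 73.9 units, against 116.3 and 132.0 in line 4 and 108.7 and 102.3 in the control. FMA, a guard cell gene and 1 of 2 such markers listed, read 66.5 units on A3-1 and 37.0 on A3-2, against 30.5 and 26.5 in line 4 and 34.5 and 39.1 in the control. The other root markers named were EXPA7 and EXPA18. EXPA7 read 25.7 units on A3-1 and 23.7 on A3-2, against 37.8 and 36.7 in the control. EXPA18 read 50.5 and 36.8, against 39.6 and 36.0. FMA, EXPA7 and EXPA18 were under 50 units on both controls. None of the 6 green tissue, 4 flower and 4 seed markers was named here. The label of whole seedlings was therefore not checked beyond the few root and guard cell values given. In RNA of whole seedlings, fewer cells of a type and less RNA per cell cannot be told apart.

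Plants read touch, wounding, cold and molecules of microbes in part through brief rises of calcium in the cytosol. EF-hand proteins and calcium-dependent kinases bind that calcium, and transcription of a set of stress genes follows quickly. Such genes encode, among others, intracellular immune proteins with a TIR domain, secreted peptides, ubiquitin ligases, transcription factors and enzymes of the cell wall. STZ, CML38, WRKY53, PUB22 and PUB23, which the choice of members left out by name, are known as stress genes of this kind.

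Over the 121 members the median log2 difference from the control mean was -2.17 on A3-1 and -1.66 on A3-2, and -0.06 for the mean of the line 4 arrays. Over all 10211 probe sets with both controls at 50 units or more, these medians were 0.04, 0.02 and -0.04. On A3-1 the members' differences ran from -4.88 to -1.06 and on A3-2 from -4.59 to -1.01, while in line 4 they ran from -0.65 to 0.55. The ratio of the lower control to the higher A3 array ran from 2.00 to 21.3 with a median of 2.86. It was at least 3 at 56 members and at least 4 at 41. Values under 10 units, where an array gives no order, occurred at 10 members on A3-1 and at 4 on A3-2, and a ratio that uses such a value is a lower bound. Without the line 4 condition 201 probe sets were low on both A3 arrays, or 1.97% of 10211. Of the 72 among them that lay outside the line 4 window, 43 (59.7%) had both line 4 arrays below both controls and 29 (40.3%) had both above. Over all 10211 probe sets these shares were 36.8% and 26.7%, but most of those lay inside the window. The shares over all probe sets outside the window were not counted, so this split is no result about probe sets low on A3. In the opposite direction, 14 of the 9087 probe sets with line 4 in the window stood at least 2-fold above the higher control on both A3 arrays. The control minimum of 50 units leaves out probe sets weak in the control, where a rise on A3 could still be read. The 14 and the 129 low probe sets are thus no like counts.

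**Figure D1:**
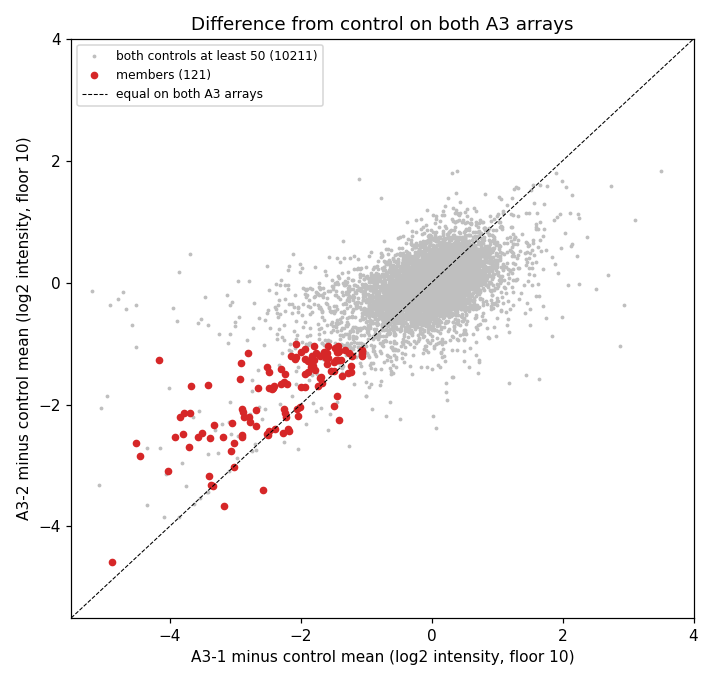
Difference from the control mean on array A3-1 (horizontal axis) and array A3-2 (vertical axis), both in log2 intensity with a floor of 10 units, for 10211 probe sets with both controls at 50 or more (grey) and the 121 members (red). Most members lie above the dashed line of equality, since 98 of them read lower on A3-1 than on A3-2.

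The choice of members asked that both A3 arrays be low but not how they stood to each other. A3-1 read below A3-2 at 98 of the 121 members (81.0%) and above it at 19 (15.7%), and the others were tied after flooring or equal. Among all 10211 probe sets the share with A3-1 below A3-2 was 49.6%. Those were not chosen as low on either array, so their shares are no like comparison for the members. Over the 10211, differences from the control mean were spread wider on A3-1. Their quartiles were -0.26 and 0.29 there, and -0.21 and 0.22 on A3-2. A3-1 was at least 2-fold below A3-2 at 19 members (15.7%, against 3.04% of the 10211) and at least 2-fold above it at 0 members (against 2.25%). Each side of this comparison is 1 array, so it has no replicate check, and it concerns an array whose labels conflict. The named members split almost as the unnamed ones did, with A3-1 lower at 47 of 58 and at 50 of 62. Of the 72 probe sets that were low on both A3 arrays with line 4 outside the window, A3-1 was the lower at 50 (69.4%). Of the 14 that were high on both A3 arrays with line 4 in the window, A3-1 was the higher at 9 (64.3%). AT1G11210 had the widest gap among the named members, at 4.5 units on A3-1 and 73.8 on A3-2, against 158.0 and 146.0 in line 4 and 181.2 and 175.2 in the control. AT4G27652 read 22.6 units on A3-1 and 83.7 on A3-2, against 391.6 and 410.3 in line 4 and 499.1 and 533.9 in the control. AT3G04640, which encodes a glycine-rich protein, read 98.6 units on A3-1 and 325.9 on A3-2, against 1186.1 and 1149.5 in line 4 and 955.5 and 1150.2 in the control. In all 3 genes A3-1 was the lowest of the 6 arrays and A3-2 lay between it and the remaining arrays. The widest gaps the other way were smaller. AT2G42760 read 47.8 units on A3-1 and 26.5 on A3-2, against 166.5 and 143.6 in line 4 and 139.1 and 115.3 in the control. AT2G28400 read 53.9 units on A3-1 and 37.3 on A3-2, and AT1G35210 read 16.2 and 11.5.

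The 58 named members were sorted by role after their values were seen. How many genes of each role the array measures was not counted, so the sizes of these groups show no enrichment. The first group is 4 TIR-domain genes. TIR domains are found in intracellular immune receptors of plants, where they act as signalling enzymes, and several plant genes encode a TIR domain with little else. AT1G72920 read 13.6 units on A3-1 and 26.0 on A3-2, against 185.3 and 186.4 in line 4 and 211.2 and 232.9 in the control. AT1G72900 read 50.7 units on A3-1 and 90.3 on A3-2, against 419.5 and 344.5 in line 4 and 337.2 and 424.5 in the control. AT1G72940 read 65.7 units on A3-1 and 117.6 on A3-2, against 346.5 and 344.0 in line 4 and 247.6 and 253.9 in the control. These 3 genes showed the same order, with A3-1 lowest, A3-2 next and the other 4 arrays higher by a factor of at least 2.11 over A3-2. They differed in line 4, which lay below both controls at AT1G72920, overlapped them at AT1G72900 and lay above both at AT1G72940. AT1G66090, the fourth, read 36.0 units on A3-1 and 78.8 on A3-2, against 250.7 and 229.2 in line 4 and 194.6 and 216.3 in the control. The log2 differences from the control mean of these genes had a median of -2.71 on A3-1, -1.72 on A3-2 and 0.12 in line 4.

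AT1G72900, AT1G72920 and AT1G72940 are near neighbours, with 1 other protein-coding gene between each pair by the TAIR10.1 gene order. From AT1G72840 to AT1G72950 that row of loci held 9 probe sets of 1 gene, of which these 3 reached 50 units on both controls. The row was looked at because the 3 members lie in it, so their number there is no result. AT1G72950, at the end of the row, missed the control minimum and also read lower on the A3 arrays, at 13.9 units on A3-1 and 4.5 on A3-2, against 35.5 and 28.5 in line 4 and 51.0 and 38.7 in the control. The other 5, AT1G72840, AT1G72850, AT1G72860, AT1G72870 and AT1G72890, were under 50 units on at least 1 control, and their A3 values, between 13.3 and 46.2, overlapped the control values, between 5.1 and 53.1. Within the row, both A3 arrays were thus below both controls by more than 1.5-fold only at the last 4 loci with a probe set. Whether probes for these related genes bind each other's transcripts was not tested.

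**Figure D2:**
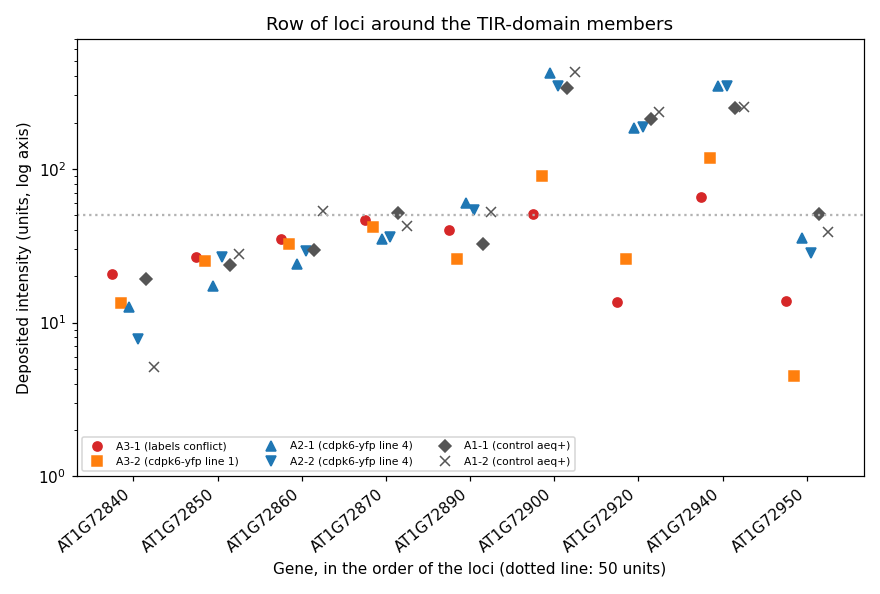
Deposited intensity in units on a log axis for the 9 probe sets of 1 gene from AT1G72840 to AT1G72950, each array being 1 point, with A3 at the left of each gene, line 4 in the middle and the control at the right. The A3 points stand apart at AT1G72900, AT1G72920, AT1G72940 and AT1G72950 and do not at the first 5, where A3-1 is the highest point at AT1G72840 and A3-2 the lowest at AT1G72890.

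A group of 9 members was sorted under peptides and proteins of the cell surface. For AT3G55840, 1 of them, a place of its product at the surface is not established here. AT4G37290, which encodes the precursor of a secreted peptide induced by microbial patterns, read 7.0 units on A3-1 and 5.0 on A3-2, against 120.0 and 115.6 in line 4 and 93.4 and 109.3 in the control. With the floor of 10 units it was at least 9.34-fold below the lower control on both A3 arrays, the largest such ratio among the named members. AT3G10930, which encodes an IDA-like peptide precursor, read 26.6 units on A3-1 and 82.8 on A3-2, against 364.1 and 332.8 in line 4 and 339.4 and 394.2 in the control. The matrix metalloproteinase gene AT1G24140 read 3.3 units on A3-1 and 3.4 on A3-2, against 71.5 and 71.2 in line 4 and 52.3 and 60.9 in the control. In these 3 genes the A3 arrays lay far below the other 4, and line 4 overlapped the control at AT3G10930 but lay above both controls at AT4G37290 and AT1G24140. AT2G27080, of the NHL family of membrane proteins, read 67.6 units on A3-1 and 113.9 on A3-2, against 520.6 and 484.1 in line 4 and 449.3 and 551.8 in the control. AT5G64870, for a flotillin-like membrane protein, read 15.2 units on A3-1 and 17.2 on A3-2, against 80.4 and 56.0 in line 4 and 71.5 and 72.9 in the control. Line 4 thus overlapped the control in both. AT2G32190 and AT1G05340, which encode small cysteine-rich transmembrane proteins, differed from the control mean by -2.48 and -1.23 in log2 on A3-1 and by -1.73 and -1.37 on A3-2. The thaumatin-like gene AT4G36010 stood at -1.83 on A3-1 and -1.34 on A3-2, and AT3G55840, a plant homologue of the beet nematode resistance gene Hs1pro-1, at -1.77 and -1.43. Over the 9 genes the median was -2.48 on A3-1, -2.07 on A3-2 and 0.22 in line 4.

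Calcium binding proteins and kinases are encoded by 5 members, beside CML38, which met the conditions and was left out by name. AT4G27280, an EF-hand protein gene, read 361.3 units on A3-1 and 591.3 on A3-2, against 1649.8 and 1627.9 in line 4 and 1954.8 and 1886.0 in the control. The A3 arrays were lowest, and line 4 lay below both controls, with a log2 difference from the control mean of -0.23. AT3G25600, a calmodulin-like gene, read 199.8 units on A3-1 and 291.1 on A3-2, against 722.6 and 701.4 in line 4 and 592.0 and 600.1 in the control. AT2G26190, which encodes a calmodulin-binding protein, read 170.7 units on A3-1 and 224.6 on A3-2, against 603.2 and 587.3 in line 4 and 458.5 and 491.3 in the control. In both of these line 4 lay above both controls, with log2 differences from the control mean of 0.26 and 0.33. The receptor-like kinase gene AT1G11050 and the receptor-like cytoplasmic kinase gene AT1G76360 differed from the control by -1.46 and -1.93 on A3-1 and by -1.28 and -1.25 on A3-2.

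A list of 16 calcium sensor genes, written for this series, had 12 named probe sets, of which 7 reached 50 units on both controls. Of these 7, 5 were low on both A3 arrays, where 1.97% of the 10211 probe sets were, and their line 4 values set 4 of the 5 outside the members. The list was written with earlier results of these data known and lacks the calmodulin-like gene AT3G25600. These shares thus show no enrichment of calcium sensors. AT4G27280, described above, was the member. CML37 read 0.5 units on A3-1 and 0.9 on A3-2, against 73.3 and 82.9 in line 4 and 50.4 and 54.2 in the control. AT5G39670 read 34.6 units on A3-1 and 26.1 on A3-2, against 402.0 and 383.1 in line 4 and 123.4 and 137.6 in the control. AT3G01830 likewise stood above the control in line 4 and below it on A3, whereas CML23 was below the control on all 4 of those arrays. Its values were 12.0 units on A3-1 and 26.2 on A3-2, against 43.1 and 42.8 in line 4 and 98.0 and 104.9 in the control. The other two were not low. CML42 read 78.7 units on A3-1 and 105.7 on A3-2, against 145.8 and 147.5 in line 4 and 102.0 and 100.6 in the control. AT2G41090 read 257.6 units on A3-1 and 245.0 on A3-2, against 1078.3 and 1004.3 in line 4 and 131.7 and 149.0 in the control, and was thus above both controls on the other 4 arrays.

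The other 11 lists, of stress regulators and hormone and clock genes, were barely covered and held no member. They do not contain the genes left out by name, among which WRKY53, the zinc finger gene STZ and the cold gene LTI30 met every condition on the intensities, so the absence of members follows in part from that choice. Over all 12 lists, 29 of 170 loci were named on the array, 16 were measured and 7 were low on both A3 arrays. Beside the calcium sensors the low ones were ORA47, 1 of 3 measured genes on the AP2/ERF list, and OPCL1, the 1 measured gene on the jasmonate list. OPCL1 encodes an enzyme of jasmonate synthesis. The AP2/ERF list does not hold AT1G77640, an AP2/ERF factor gene that is a member. ORA47 read 43.6 units on A3-1 and 46.6 on A3-2, against 168.7 and 161.6 in line 4 and 358.9 and 324.4 in the control. OPCL1 read 103.8 units on A3-1 and 111.2 on A3-2, against 457.1 and 461.3 in line 4 and 266.5 and 272.6 in the control. Line 4 thus lay between A3 and the control for the one and above both for the other. Aside from the genes left out by name, the single measured genes of the WRKY, pattern-triggered immunity, ethylene, clock and cold lists were not low on both A3 arrays. Their log2 differences were -0.37 on A3-1 and -0.46 on A3-2 for WRKY22, -0.17 and 0.01 for BIK1, 0.57 and 0.07 for EIN3, -1.94 and -0.10 for GI, and -1.45 and -0.79 for COR47. On the touch and XTH, zinc finger, VQ protein and MAP kinase lists, which lack STZ as said, no gene was measured.

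A group of 6 members encodes regulators of transcription and of ubiquitin transfer, beside WRKY53, STZ, PUB22 and PUB23, which were left out by name. AT3G02840, which encodes an armadillo repeat protein, read 15.8 units on A3-1 and 20.2 on A3-2, against 179.7 and 153.1 in line 4 and 106.0 and 129.8 in the control. It was the named member with the largest positive difference in line 4, at 0.50 in log2. AT1G77640, an AP2/ERF factor gene of the DREB type, read 39.5 units on A3-1 and 65.9 on A3-2, against 169.6 and 158.8 in line 4 and 168.4 and 205.8 in the control. The GRAS regulator gene AT3G46600 read 103.0 units on A3-1 and 173.8 on A3-2, against 280.8 and 268.4 in line 4 and 354.5 and 363.0 in the control. Line 4 overlapped the control at AT1G77640 and lay below it at AT3G46600. The RING-type genes AT5G66070 and AT1G20823 differed from the control by -1.99 and -1.28 on A3-1 and by -1.13 and -1.48 on A3-2, and AT4G02200 of the Di19 zinc finger family by -1.38 and -1.28.

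A further 6 members encode wall enzymes and transporters. AT5G52050 (DTX50), a MATE carrier known to export abscisic acid, read 12.0 units on A3-1 and 12.5 on A3-2, against 83.1 and 87.2 in line 4 and 106.6 and 144.6 in the control. Both A3 arrays were at least 8.53-fold below the lower control, and line 4 lay 0.54 in log2 below the control mean. AT1G61890, a further MATE carrier gene, read 102.4 units on A3-1 and 112.7 on A3-2, against 429.1 and 395.9 in line 4 and 325.6 and 331.9 in the control. The berberine bridge enzyme-like oxidase genes AT4G20860 and AT4G20830, from a family that oxidises sugars of the cell wall, lie close together with 3 protein-coding genes between them. AT4G20860 read 60.3 units on A3-1 and 70.1 on A3-2, against 239.8 and 266.6 in line 4 and 224.1 and 235.9 in the control. AT4G20830 read 118.4 units on A3-1 and 167.0 on A3-2, against 400.3 and 480.7 in line 4 and 385.2 and 350.9 in the control. Line 4 was above both controls for this pair and for AT1G61890. The glycosyltransferase gene AT2G41640 read 38.4 units on A3-1 and 62.2 on A3-2, against 277.2 and 294.6 in line 4 and 181.5 and 238.7 in the control. EXLA3, which encodes an expansin-like protein, differed from the control by -1.82 on A3-1 and -1.20 on A3-2.

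**Figure D3:**
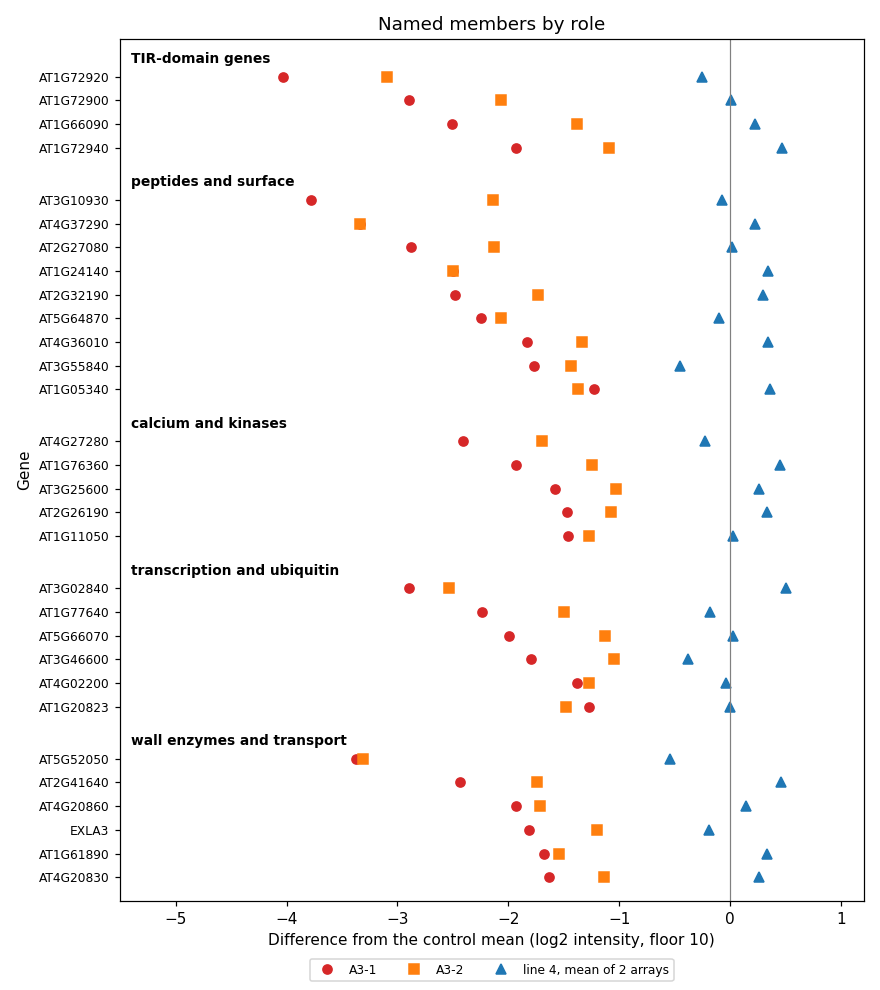
Log2 difference from the control mean (floor 10 units) for the 30 named members grouped by role, with A3-1 as circles, A3-2 as squares and the mean of the 2 line 4 arrays as triangles. All A3 points lie at or below -1.03 and all line 4 points between -0.54 and 0.50, as the choice of members requires.

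The other 28 members of 1 gene encode proteins of mixed or unknown roles, and their ratios of the lower control to the higher A3 array ran from 2.02 to 8.74. AT1G35210 had the largest, with 16.2 units on A3-1 and 11.5 on A3-2, against 129.0 and 134.7 in line 4 and 149.5 and 141.6 in the control. AT2G39650 read 26.7 units on A3-1 and 52.6 on A3-2, against 193.3 and 202.3 in line 4 and 259.6 and 272.4 in the control. AT1G72240 read 3.6 units on A3-1 and 20.4 on A3-2, against 104.3 and 98.9 in line 4 and 106.7 and 130.3 in the control. In these 3 genes line 4 lay below both controls and the A3 arrays far lower. Related genes occurred in pairs here. AR781 (AT2G26530) and AT1G23710, which share a domain of unknown function, differed from the control by -2.22 and -1.80 on A3-1 and by -2.21 and -1.26 on A3-2. AT1G74450 and AT1G18740, also related to each other, differed by -2.25 and -1.93 on A3-1 and by -1.63 and -1.50 on A3-2, and both lay below both controls in line 4, at -0.60 and -0.28. AT5G42050, which encodes a protein with a DCD domain, read 239.9 units on A3-1 and 305.4 on A3-2, against 825.7 and 789.7 in line 4 and 739.7 and 694.9 in the control. AT4G24380, AT1G15010, AT5G65300, AT5G38700, AT2G18210, AT1G05575 and AT1G78070 (a WD40 repeat protein) had ratios from 3.11 to 5.33. AT2G38790, ZCF37, AT5G13200 (a GRAM domain protein), AT4G32020, AT4G18280, AT1G14480 (an ankyrin repeat protein), AT2G23840 (an HNH endonuclease family protein) and AT1G73750 had ratios from 2.02 to 2.73.

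**Figure D4:**
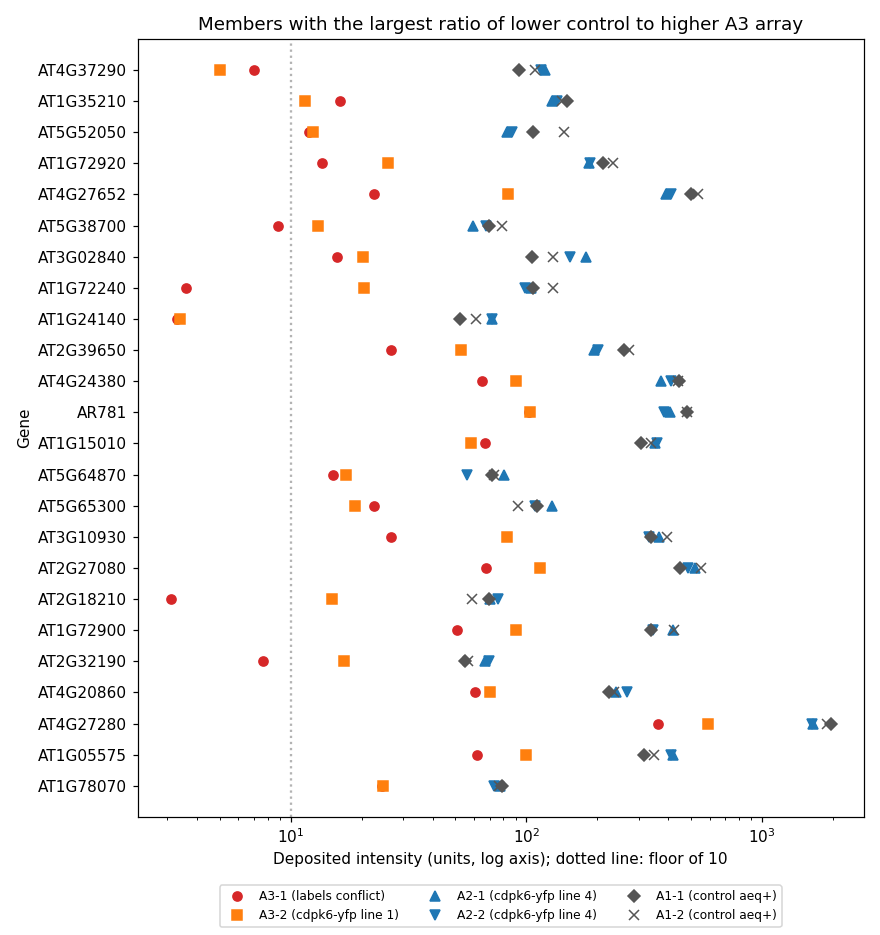
Deposited intensity in units on a log axis for the 24 named members with the largest ratio of the lower control to the higher A3 array, 1 point per array, with the dotted line at the floor of 10 units. Both A3 points of each gene lie to the left of the 4 line 4 and control points, and at AT4G37290 and AT1G24140 both lie under the floor.

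Line 4 was held near the control by the choice of members, so only its side was free to vary. Both line 4 arrays lay below both controls at 51 of the 121 members (42.1%) and above both at 34 (28.1%). Among all 9087 probe sets that met the same conditions on control and line 4, these shares were 34.4% and 24.9%. For the 58 named members the counts were 20 below (34.5%) and 24 above (41.4%), and for the 62 unnamed ones 30 (48.4%) and 10 (16.1%). Among the 9087, named and unnamed probe sets were not counted apart, so this split has no share to stand against. Unnamed members had log2 medians of -2.22 on A3-1, -1.70 on A3-2 and -0.07 in line 4, close to those of the named ones at -2.04, -1.59 and 0.01. The largest ratio of all members, 21.3, belonged to an unnamed probe set that read 3.6 units on A3-1 and 12.2 on A3-2, against 204.3 and 226.5 in line 4 and 259.8 and 331.7 in the control. The 1 member that matched several genes read 57.0 units on A3-1 and 74.1 on A3-2, against 143.5 and 138.1 in line 4 and 175.5 and 171.9 in the control.

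The 2-fold limit cut through a continuous range. The named members just inside it were AT3G46600, AT3G25600, AT5G66070 and AT1G73750, with ratios of the lower control to the higher A3 array of 2.04, 2.03, 2.02 and 2.02, and unnamed members reached down to 2.00. The probe sets of 1 gene just outside it were AT1G67880, AT3G57450, AT1G50740 and AT4G28400, with ratios of 1.99, 1.98, 1.97 and 1.96. AT3G57450 read 263.8 units on A3-1 and 477.8 on A3-2, against 959.6 and 1024.8 in line 4 and 947.8 and 959.3 in the control, a pattern like that of the members. The count of members depended on how the A3 arrays were used. With A3-1 left out and A3-2 alone held to the limit the count was 171, and with A3-2 left out and A3-1 alone held to it the count was 375. With A3-1 counted among the controls, as its title would have it, 20 probe sets met the conditions, with A3-2 as the 1 low array. The conditions then ask that A3-2 be at or below A3-1 divided by 2. This held at 0 of the 121 members, so none of the 20 is among them.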

How the data were processed

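Biotin-labelled RNA of seedlings was hybridised to 1-colour ATH1 arrays, 1 for each of 6 samples. The deposited values are probe set intensities on a linear scale, and from the values the authors had scaled each array to a common trimmed mean. How probes were summarised is not stated in the labels or headers. Of 22810 probe sets, 64 AFFX probe sets were left out, except for the checks of RNA quality. Values under 10 were raised to 10 for ratios and log2 differences, and printed intensities are as deposited. No further scaling was done. Python 3.11.15 with pandas 2.3.3 and numpy 2.4.6 was used.

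Arrays were grouped by strain label and, for A3, by title code. The members and lists were chosen with earlier results of these data known. The choice of members used every array, so no test was run, and precision is limited by how few arrays there are. The script for the choice was tested on simulated data.

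Genes came from the platform annotation (13513 probe sets of 1 gene, 503 of several, 8730 without a name), with symbols updated through the TAIR10.1 gene table, whose coordinates are not printed because the files name no build. Those tables hold no product names, so the planned count by product class was not made, and promoter and protein sequences were not used here. Named were the 24 members with the largest ratio, those on a list, the 4 on either side of the limit, the 3 with the largest gap between the A3 arrays each way and the 4 with the highest control values, 34 members in all. The other 24 named members, the grouping by role, the row of TIR loci and the list genes that are no members were chosen after their values were seen. Roles are background knowledge. Alternatives changed the floor, the limits, the scaling and the arrays used.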

Additional observations from a re-analysis of the deposited data

Results flagged for a closer look

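At 34 members both line 4 arrays lay above both controls while both A3 arrays lay below them, so the arrays of line 4 and A3 stood on opposite sides of the control. This is 28.1% of the 121 members, near the 24.9% of the 9087 probe sets that met the same conditions on control and line 4, and 51 members (42.1%) had line 4 below both controls. The difference between line 4 and the A3 arrays was not tested, the A3 side is fixed by the choice of members, and 1 of the A3 arrays has conflicting labels. Of these members 24 were named. Their log2 differences of line 4 from the control were 0.50 for AT3G02840, 0.46 for AT1G72940, 0.46 for AT2G41640 and 0.44 for AT1G76360. They were 0.35 for AT1G05340, 0.34 for AT1G24140 and AT4G36010, 0.33 for AT2G26190 and AT1G61890, 0.32 for AT1G05575 and 0.30 for AT2G32190. AT5G13200 and AT2G42760 stood at 0.29, AT3G25600 at 0.26, AT4G20830 at 0.25, AT1G66090 and AT4G37290 at 0.22 and AT2G18210 at 0.19. The smallest were 0.17 for AT5G42050 and AT2G28400, 0.14 for AT2G38790 and AT4G20860, 0.13 for AT1G15010 and 0.02 for AT1G11050.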

How the results depend on the processing

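The count of 121 members was 269 with a fold of 1.5 and 56 with a fold of 3, 74 with a line 4 window of 1.2 and 190 with no window. It was 20 with array A3-1 among the controls, and none of these 20 is among the 121. Leaving out 1 array gave counts from 123 to 375, the highest without A3-2. With a floor of 1 or 25 the count was 121, but neither floor could change it. The control minimum used for the 121 keeps the limits on A3 and line 4 at or above 25 units. The count was 122 with quantile normalization and 119 with median scaling. With control minimums of 25 and 100 it was 138 and 102, and with a window of 2 it was 160. With no gene left out by name, an alternative chosen after seeing the data, it was 129. A count does not say which probe sets are held. The median difference of -2.17 on A3-1 was -1.99 with a floor of 25 and -2.10 to -2.19 without either control. That of -1.66 on A3-2 was -1.54 with a floor of 25 and -1.56 to -1.75 without either control, and the line 4 median of -0.06 kept within -0.09 to -0.03. From 15 to 22 members read at least 2-fold lower on A3-1 than on A3-2 under 4 alternatives of floor and scaling, and 0 at least 2-fold higher. For 34 named members the A3 differences recomputed ran from -5.31 to -1.01, and their sign is fixed by the choice of members. No paired analysis was possible because the results come from no test. Low A3 intensities limit the size of the differences.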
